A study of Danio rerio with 12 samples.

Results

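The subject here is the interaction of genotype and drug in whole zebrafish embryos: the response to 5AzadC in H2A.Z-mCherry embryos minus the response to 5AzadC in wild type. All 12 of the 12 libraries of the series enter it, 3 in each of 4 groups, chosen by their labels alone. The groups were the H2A.Z-mCherry line with 5AzadC, the same line with DMSO, and wild type with 5AzadC or with DMSO. The labels give the genotype of the H2A.Z-mCherry line as overexpression of H2A.Z, and its name shows a fusion to the red fluorescent protein mCherry. The sources used here do not give the promoter that drives the fusion or the number of founder lines. AB/Tuebingen is the only stock the labels name. Eggs were held at around 50 per well in 5 mL from shortly after spawning, with 100 µM 5AzadC or with 0.1% DMSO as the solvent control, and total RNA was taken from ground embryos at 12 hours post fertilisation.

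H2A.Z is a variant of histone H2A that sits in nucleosomes around promoters, and in early zebrafish embryos it marks promoters that stay free of DNA methylation. 5AzadC (5-aza-2'-deoxycytidine) is a cytosine analogue that is built into new DNA, where it traps DNA methyltransferases, so that methylation is lost as cells divide and the DNA is damaged. DNA damage stabilises p53, a transcription factor that stops cells from dividing or makes them die. The title of the series names competition for H2A.Z when repetitive elements lose their repression. The interaction asks whether embryos with added H2A.Z answered the drug as wild-type embryos did. A positive interaction means that the log2 fold change of 5AzadC against DMSO was higher in H2A.Z-mCherry than in wild type, and a negative one that it was lower.

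Library totals ran from 1142051 to 1904063 counts. Levels are given in CPM, counts scaled to a common library total, so that a single count stood for between 0.521 and 0.923 CPM. Markers of many embryonic tissues passed the filter on low counts, among them 40 of 52 listed epidermal genes, 61 of 79 neural genes, 30 of 41 notochord genes and 27 of 55 skeletal muscle genes. Genes for RNA of the signal recognition particle took 9.06% to 11.6% of the counts in H2A.Z-mCherry with 5AzadC and 9.78% to 11.9% in H2A.Z-mCherry with DMSO, against 12.2% to 13.2% in wild type with 5AzadC and 11.5% to 11.7% in wild type with DMSO. Leaving the abundant rn7sl1 out before scaling gave 462 interaction calls, of which 455 were shared with the 461 called with it. No label says that replicates are separate clutches or wells, and the p-values then measure only how far these libraries spread, which may be technical. In RNA of whole embryos, fewer cells of a type and less RNA per cell cannot be told apart.

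Both genes for H2A.Z that matched the list had responses in the same direction in both genotypes. The more abundant, h2az2b, stood at 719, 850.2 and 705 CPM in H2A.Z-mCherry with 5AzadC and 455, 510.2 and 454 CPM with DMSO. Wild type had 708, 729 and 644 CPM with 5AzadC and 432, 365 and 386 CPM with DMSO. The treated libraries lay above the DMSO libraries in each genotype, and the interaction did not pass the test (interaction -0.14 ± 0.13, adjusted p 0.657). For H2AZ2 (ENSDARG00000068820), chosen after its values were seen, the interaction was 0.20 ± 0.29 (SE, adjusted p 0.803). The sources used here do not say if reads of the fusion were counted for either gene, so these levels do not check the genotype label.

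The interaction was called in 461 of 12293 tested genes, which is 3.75%, at an adjusted p under 0.05 by the quasi-likelihood test of edgeR with Benjamini-Hochberg adjustment. It was higher in 233 genes and lower in 228, or 1.9% and 1.85% of the tested genes. Of the 461 genes, 191 had an interaction of at least 1 on the log2 scale in size. The median level of the 461 genes was 125 CPM, against 24.7 CPM over all tested genes. Over all tested genes the interaction was positive in 6291 and negative in 6002.

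The 461 genes were sorted by which genotype's own response passed the same test. A response is called lost where wild type passed and H2A.Z-mCherry did not, gained where H2A.Z-mCherry passed and wild type did not, and reversed where both passed in opposite directions. By this sorting 221 responses were lost, 33 reversed and 119 gained. In 81 genes both genotypes passed in the same direction, and in 7 neither passed. A response that did not pass is not shown to be absent. Of the 221 lost responses, 190 had a log2 fold change in H2A.Z-mCherry below 0.5 times that of wild type in size, and 137 had the opposite sign. Over all 12293 tested genes these counts were 3686 and 4112. Among the 119 gained responses, 89 had a log2 fold change in wild type below 0.5 times that of H2A.Z-mCherry in size. The sign was opposite in 97 of them. Over all tested genes these counts were 3101 and 4112. The sorting itself favours small or opposite values in the genotype that did not pass, so the counts describe the classes and do not test them.

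**Figure D1:**
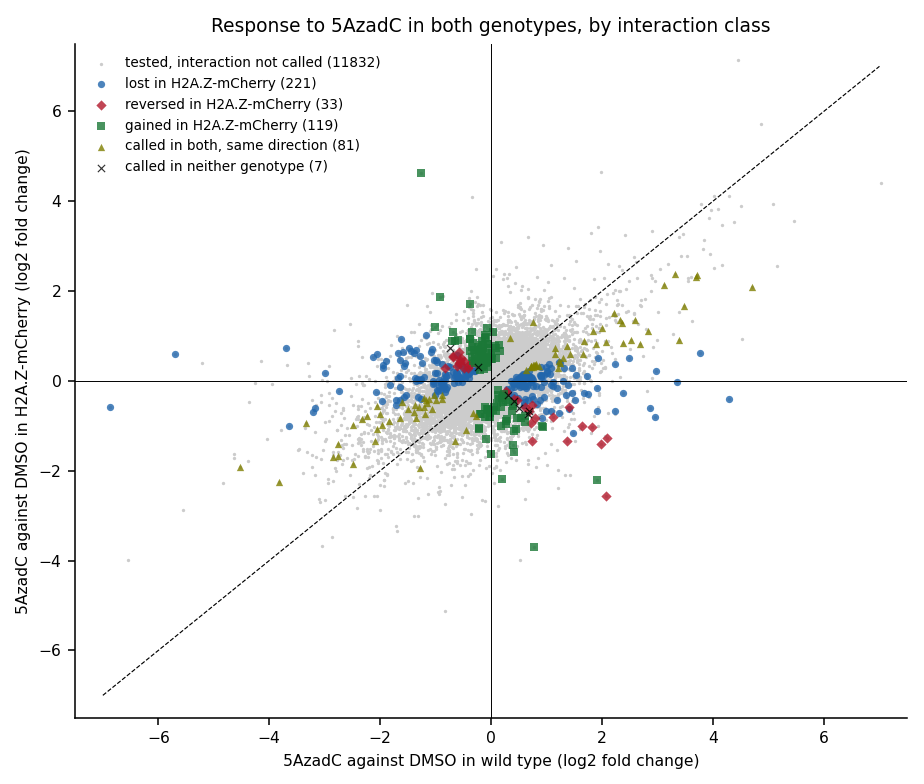
Each point is 1 of the 12293 tested genes, with its log2 fold change of 5AzadC against DMSO in H2A.Z-mCherry (vertical axis) and in wild type (horizontal axis). The 221 lost responses lie along the horizontal axis, the 119 gained along the vertical axis and the 33 reversed towards the upper left and lower right. The dashed line marks equal responses.

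Lost and reversed responses ran in both directions. A rise in wild type was lost in 112 genes, where the median log2 fold change was -0.05 in H2A.Z-mCherry and 0.76 in wild type. A fall in wild type was lost in 109 genes, with medians of 0.11 in H2A.Z-mCherry and -0.998 in wild type. In 18 genes a fall in H2A.Z-mCherry met a rise in wild type, with medians of -0.81 in H2A.Z-mCherry and 0.76 in wild type. In the other 15 reversed genes a rise in H2A.Z-mCherry (median 0.39) met a fall in wild type (median -0.56). Gained responses were 71 rises and 48 falls. Among the 81 genes with 1 direction, 40 rises and 34 falls were smaller in H2A.Z-mCherry, while 2 rises and 5 falls were larger. These medians describe classes that the same tests made, and they carry no test of their own.

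A second sorting shows in which treatment the genotypes stood apart. With 5AzadC alone the genotypes differed in 315 of the 461 genes, and with DMSO alone in 52. They differed in both treatments in 52 genes, 37 of them in opposite directions, and in neither in 42. Over all 12293 tested genes the genotypes differed with 5AzadC alone in 1537 and with DMSO alone in 273. They differed in both treatments in 381 and in neither in 10102. Counting each treatment whatever the other showed, the shares were 15.6% with 5AzadC and 5.32% with DMSO. The interaction equals the genotype difference with 5AzadC minus that with DMSO, so this sorting is not independent of the calls. Of the 18 genes with a rise turned to a fall, 11 differed in both treatments, 10 of them in opposite directions, so that H2A.Z-mCherry stood higher with DMSO and lower with 5AzadC. Of the 119 gained responses, 87 differed with 5AzadC alone.

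The authors' deposited tables give the response in each genotype from their own fit. Of the 221 lost responses, 204 passed in wild type alone in the authors' deposited tables and 17 in neither genotype. Of the 119 gained responses, the authors' deposited tables had 105 that passed in H2A.Z-mCherry alone and 14 in neither. Of the 33 reversed responses, 22 passed in both genotypes in the authors' deposited tables, 7 in wild type alone, 1 in H2A.Z-mCherry alone and 3 in neither. These tables rest on the same 12 libraries, so their counts describe another fit and not other embryos.

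The smallest interaction p belonged to ftr86, a member of the large fish family of TRIM genes called finTRIM. Its level was 79.8, 73.1 and 76 CPM in H2A.Z-mCherry with 5AzadC and 165, 135 and 165 CPM in H2A.Z-mCherry with DMSO. In wild type it was 236, 200.04 and 215 CPM with 5AzadC and 72.7, 65.6 and 70.4 CPM with DMSO. The drug thus went with a 2.02-fold lower level in H2A.Z-mCherry and a 3.12-fold higher level in wild type, with no overlap between treated and untreated libraries in either genotype. The interaction was -2.66 ± 0.20 (SE, adjusted p 2.49e-17). With DMSO, H2A.Z-mCherry lay above wild type by 1.15 on the log2 scale (adjusted p 4.38e-09).

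Genes of the AP-1 transcription factor and other immediate early genes, which cells switch on within minutes of a stimulus and which are later shut off, included several lower interactions. Of 25 tested members 8 were called, all lower, or 32% against 1.85% of all genes called lower. Here and below, 1.85% is the share of all genes called lower and 1.9% the share called higher. Which of them is given was taken from the list's own calls, and 3.75% of all genes were called in either direction. All lists were chosen with earlier results of these data known, so their shares describe the lists and do not test them. The median interaction of the list was -0.73, against 0.02 over all tested genes. Within genotypes 6 members fell and none rose in H2A.Z-mCherry, while 9 rose and 1 fell in wild type. Over all tested genes 8.84% rose and 9.03% fell in H2A.Z-mCherry, against 10.7% and 11.7% in wild type. AP-1 is a dimer of proteins of the FOS and JUN families.

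FOS itself had a lost rise. It stood at 36.1, 48.9 and 45.8 CPM in H2A.Z-mCherry with 5AzadC and 40.5, 20.6 and 26.3 CPM with DMSO, where the ranges overlap. In wild type it stood at 93.8, 71.6 and 97.9 CPM with 5AzadC and 5.06, 9.2 and 4.56 CPM with DMSO, a 13.6-fold difference. The interaction of FOS was -3.16 ± 0.40 (SE, adjusted p 4.45e-08). Of the DMSO libraries, every one of H2A.Z-mCherry lay above every one of wild type, by 2.16 on the log2 scale (adjusted p 9.87e-07).

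Both genes named JUNB, a partner of FOS, were reversed. JUNB (ENSDARG00000104773) had 7.53, 10.02 and 16.7 CPM in H2A.Z-mCherry with 5AzadC and 35.7, 25.9 and 23.8 CPM with DMSO, against 58.8, 32.9 and 58.2 CPM in wild type with 5AzadC and 15.2, 12.7 and 7.17 CPM with DMSO. Its treated libraries lay below the DMSO libraries in H2A.Z-mCherry and above them in wild type, and the interaction was -3.36 ± 0.46 (SE, adjusted p 2.98e-07). For the second gene (ENSDARG00000074378) the levels were 2.26, 0.589 and 8.33 CPM in H2A.Z-mCherry with 5AzadC, 29.98, 17 and 24.6 CPM in that line with DMSO, 23.8, 9.88 and 22.2 CPM in wild type with 5AzadC and 5.06, 2.88 and 5.21 CPM in wild type with DMSO. Here H2A.Z-mCherry with DMSO overlapped wild type with 5AzadC, and the interaction was -4.64 ± 0.70 (SE, adjusted p 2.82e-06). How reads shared by these paralogs were counted is not stated.

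Other genes followed in 2 patterns. FOSL1, another FOS relative, had a log2 response of -0.28 in H2A.Z-mCherry and 2.37 in wild type, with an interaction of -2.65 ± 0.53 (SE, adjusted p 0.00061). The rise in wild type was likewise lost for CEBPB, a transcription factor of inflammation. This gene was named through the list of blood, endothelium and lateral plate. Its response was -0.28 in H2A.Z-mCherry against 1.46 in wild type, with an interaction of -1.73 ± 0.40 (SE, adjusted p 0.00441). The wild-type rise was also lost for ier2a, chosen after its values were seen, at -0.43 in H2A.Z-mCherry and 0.89 in wild type and an interaction of -1.32 ± 0.29 (SE, adjusted p 0.00272). A gained fall was seen for fosaa, with 0.753, 0.589 and 1.04 CPM in H2A.Z-mCherry with 5AzadC and 13, 8.23 and 13.6 CPM with DMSO, against 6.7, 6.59 and 7.39 CPM in wild type with 5AzadC and 6.96, 0.575 and 4.56 CPM with DMSO. Only the treated H2A.Z-mCherry libraries of fosaa sat near the level of 1 or 2 counts, apart from 1 wild-type DMSO library, and its interaction was -4.48 ± 1.07 (SE, adjusted p 0.00615).

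Genes of prostaglandin synthesis and of the NF-κB pathway, which turns on inflammatory genes, included several large negative interactions. PTGS2 (ENSDARG00000010276), the inducible enzyme of prostaglandin synthesis known as COX-2, was reversed. Its level was 21.1, 22.4 and 23.4 CPM in H2A.Z-mCherry with 5AzadC and 52.7, 47.6 and 80.7 CPM with DMSO, against 84.9, 60.1 and 77.6 CPM in wild type with 5AzadC and 12.6, 15.5 and 28.7 CPM with DMSO. The treated H2A.Z-mCherry libraries fell within the range of untreated wild type, while the untreated H2A.Z-mCherry libraries overlapped treated wild type. The interaction was -3.39 ± 0.36 (SE, adjusted p 1.41e-10). A list of 15 tested prostaglandin, NF-κB and ets2 genes was drawn up after their values were seen. Of these 4 were called, all lower, or 26.7% against 1.85% of all genes, and the median interaction was -0.34. The list was built with these calls known, so its share describes the list and tests nothing.

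TNFAIP3, whose protein A20 restrains NF-κB, had 12.8, 18.9 and 9.37 CPM in H2A.Z-mCherry with 5AzadC and 31.6, 35.3 and 36.5 CPM with DMSO. Wild type had 43.9, 56.8 and 36.9 CPM with 5AzadC and 29.1, 26.5 and 27.4 CPM with DMSO. Within each genotype the treated and untreated libraries did not overlap, and they moved in opposite directions, with an interaction of -2.07 ± 0.40 (SE, adjusted p 0.000286). The ETS transcription factor gene ets2 was reversed too, at -1.03 in H2A.Z-mCherry and 1.82 in wild type, with an interaction of -2.85 ± 0.47 (SE, adjusted p 1.67e-05). For NFKBIZ, an IκB protein of the nucleus, the rise in wild type was lost, with responses of -0.52 in H2A.Z-mCherry and 0.83 in wild type and an interaction of -1.36 ± 0.31 (SE, adjusted p 0.00321). These 3 genes were chosen after their values were seen. Lost as well was the rise of irg1l, a relative of the enzyme that makes itaconate in immune cells, at -0.80 in H2A.Z-mCherry and 2.96 in wild type, and its interaction was -3.76 ± 0.72 (SE, adjusted p 0.000868). It was the 1 gene called of 13 tested interferon and RNA sensing genes, or 7.69% against 3.75% of all genes. The ubiquitin-like gene isg15, chosen after its values were seen, rose in both genotypes and had an interaction of -2.63 that did not pass (adjusted p 0.155).

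**Figure D2:**
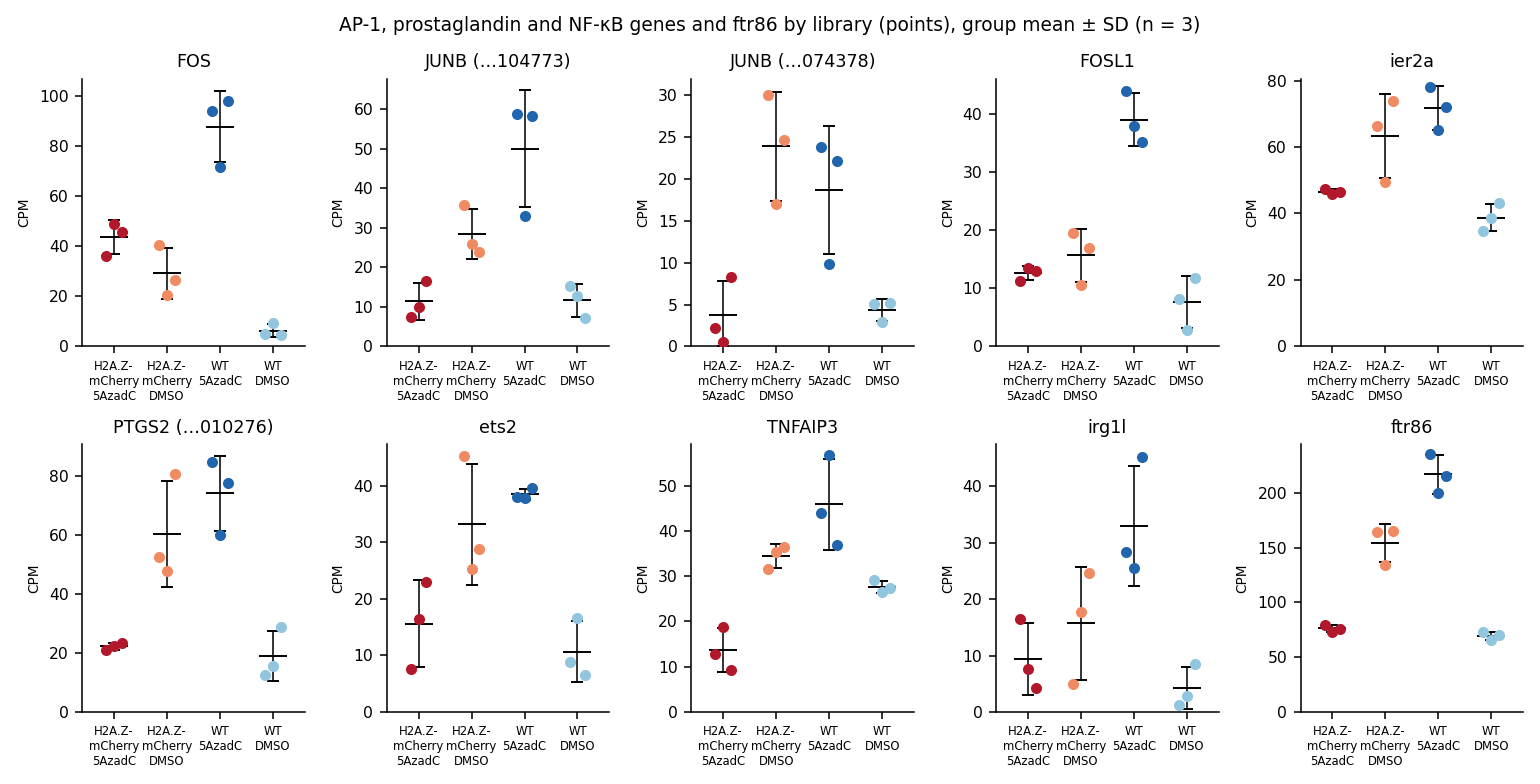
Points show the CPM of 10 genes in each library, and black bars the group mean and SD (n = 3), with H2A.Z-mCherry in reds and wild type in blues. For PTGS2, ets2, both JUNB genes and ftr86 the group means of H2A.Z-mCherry with DMSO and wild type with 5AzadC are the upper pair, and ftr86 runs from 73.1 to 79.8 CPM in treated H2A.Z-mCherry and from 200.04 to 236 CPM in treated wild type.

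Some other reversed genes of this direction had different roles. For crb2a, a Crumbs gene that sets the apical side of epithelial cells, the log2 response was -0.57 in H2A.Z-mCherry and 1.41 in wild type, and the interaction was -1.98 ± 0.25 (SE, adjusted p 4.45e-08). It differed from the genes above in the DMSO libraries, where both genotypes had similar levels, 62.4, 62.9 and 75.6 CPM in H2A.Z-mCherry and 53.8, 58.7 and 78.8 CPM in wild type. FNIP1, a partner of folliculin in nutrient signalling, had responses of -0.53 in H2A.Z-mCherry and 0.74 in wild type (interaction -1.27 ± 0.20, adjusted p 8.86e-06). ALAS1, the first enzyme of haem synthesis, chosen after its values were seen, had -0.67 in H2A.Z-mCherry and 0.69 in wild type (interaction -1.35 ± 0.22, adjusted p 8.86e-06).

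Several keratin and junction genes of the epidermis and periderm, the outer covering of the embryo, had lower interactions. Of 40 tested members 8 were called, 7 of them lower and 1, TFAP2C, higher. That is 20%, against 3.75% of all tested genes, and the median interaction was -0.24. Within genotypes 13 members rose and none fell in H2A.Z-mCherry, while 23 rose and 1 fell in wild type. The claudin gene cldnb, a part of tight junctions, had 56.4, 79.5 and 37.5 CPM in H2A.Z-mCherry with 5AzadC and 80.2, 49.97 and 63.7 CPM with DMSO. In wild type the levels were 99.8, 89.7 and 144 CPM with 5AzadC and 27.2, 30.5 and 30.6 CPM with DMSO. The 2 H2A.Z-mCherry groups overlapped and both lay between the wild-type groups in their means, and the interaction was -2.06 ± 0.31 (SE, adjusted p 5.17e-06).

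The keratin gene krt17 stood at 403, 520.3 and 399 CPM in treated H2A.Z-mCherry and 513, 353 and 457 CPM with DMSO, against 716, 609 and 689.8 CPM in treated wild type and 302, 236 and 279.6 CPM with DMSO. Both H2A.Z-mCherry groups again lay between the wild-type groups, with no overlap, and the interaction was -1.30 ± 0.16 (SE, adjusted p 5.78e-07). The keratin genes cyt1l, cyt1 and krt92 had interactions of -0.91 ± 0.12 (SE, adjusted p 1.45e-07), -0.82 ± 0.12 (SE, adjusted p 1.62e-06) and -0.93 ± 0.13 (SE, adjusted p 4.66e-07). In these the untreated H2A.Z-mCherry level was above untreated wild type, by 0.51, 0.32 and 0.56 on the log2 scale. A different layout was seen for the keratin gene krt4, named after its values were seen. It had 1831, 2086 and 1699.9 CPM in H2A.Z-mCherry with 5AzadC, 1850.1, 1469 and 1840.2 CPM in H2A.Z-mCherry with DMSO, 6919.9, 5531 and 6853 CPM in wild type with 5AzadC and 3769, 3488 and 3262 CPM in wild type with DMSO. Here every H2A.Z-mCherry library was below every wild-type library, treated or not, and the interaction was -0.75 ± 0.12 (SE, adjusted p 0.000135).

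Further rises of wild type were lost. SVEP1, a large protein of the extracellular matrix, had 48.2, 59.5 and 68.2 CPM in H2A.Z-mCherry with 5AzadC and 24.3, 47 and 53.5 CPM with DMSO. Wild type had 234, 175 and 175 CPM with 5AzadC and 27.8, 36.8 and 39.8 CPM with DMSO. Treated wild type alone stood high, and the interaction was -1.99 ± 0.28 (SE, adjusted p 9.57e-07). The receptor gene NOTCH1 (ENSDARG00000103554) had log2 responses of -0.05 in H2A.Z-mCherry and 0.66 in wild type, with an interaction of -0.71 ± 0.11 (SE, adjusted p 8.86e-06). For apoa1b, an apolipoprotein gene of the yolk syncytial layer, the interaction was -0.68 ± 0.14 (SE, adjusted p 0.000994). It was the 1 gene called of 18 in its list, or 5.56% against 3.75% of all genes. The gene si:ch211-153b23.4 had responses of 0.23 in H2A.Z-mCherry and 2.98 in wild type and an interaction of -2.75 ± 0.38 (SE, adjusted p 2.98e-07). Its neighbour in the RefSeq annotation of GRCz12tu, si:ch211-153b23.5, chosen after its values were seen, had a smaller rise and not a lost one. The responses were 0.91 in H2A.Z-mCherry and 3.38 in wild type (interaction -2.46 ± 0.46, adjusted p 0.00284).

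Several targets of p53 that arrest the cell cycle or feed back on p53 rose in both genotypes and by less in H2A.Z-mCherry. Of 24 tested members 14 rose and 2 fell in H2A.Z-mCherry, and 15 rose and 2 fell in wild type. The interaction was called in 6, all lower, or 25% against 1.85% of all genes, and the median interaction was -0.61. Over the 24 members the interaction was negative in 16 and positive in 8. The median ran from -0.72 to -0.23 over the alternatives, and was -0.23 without wild-type DMSO replicate 1. In 5 of the 6 called genes the response was a smaller rise and in BTG2 a lost rise.

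For mdm2, the ubiquitin ligase that degrades p53, the levels were 169, 204 and 212 CPM in H2A.Z-mCherry with 5AzadC and 33.2, 44.1 and 36.5 CPM with DMSO, against 433, 464 and 440.5 CPM in wild type with 5AzadC and 29.7, 22.4 and 50.8 CPM with DMSO. That is a 5.09-fold rise in H2A.Z-mCherry and a 13.1-fold rise in wild type, with overlapping DMSO groups and an interaction of -1.36 ± 0.24 (SE, adjusted p 7.11e-05). The cell cycle inhibitor cdkn1a had 39.9, 38.9 and 48.4 CPM in treated and 24.3, 15.9 and 19.5 CPM in untreated H2A.Z-mCherry, against 112, 93.8 and 77.6 CPM in treated and 10.8, 13.8 and 15 CPM in untreated wild type. Its treated libraries lay above the untreated in both genotypes, and those of wild type were highest, with an interaction of -1.73 ± 0.37 (SE, adjusted p 0.00167). TP53INP1, a p53-induced nuclear protein, had responses of 2.32 in H2A.Z-mCherry and 3.69 in wild type (interaction -1.37 ± 0.31, adjusted p 0.00416). BTG2, which slows proliferation, had 0.13 in H2A.Z-mCherry and 0.91 in wild type (interaction -0.77 ± 0.14, adjusted p 6.25e-05).

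Not every p53 gene was called. The interactions of GADD45A (ENSDARG00000043581), at -1.16 ± 0.85 (SE, adjusted p 0.551), and of PHLDA3, at -0.60 ± 0.53 (SE, adjusted p 0.638), did not pass. Both genes were chosen after their values were seen. Their DMSO libraries held 0 to 23 counts of each gene. Of the 12 tested p53 targets of cell death 1 was called, or 8.33% against 3.75% of all genes. It was pidd1, which encodes a death domain protein, with an interaction of -1.28 ± 0.39 (SE, adjusted p 0.0446). This count was 0 with DESeq2, with all genes that had a count, with libraries thinned to the smallest, and without each single library other than H2A.Z-mCherry DMSO replicate 1, wild-type 5AzadC replicate 2 and wild-type DMSO replicate 3. Without the last of these it was 3.

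In the list of integrated stress and heat shock, 2 of 26 tested members were called, both lower, or 7.69% against 3.75% of all genes, and the median interaction was -0.000948, with 13 negative and 13 positive. TXNIP (ENSDARG00000036107), which inhibits thioredoxin, had 546, 533 and 514 CPM in H2A.Z-mCherry with 5AzadC and 343, 224 and 313 CPM with DMSO. In wild type it had 1246, 1097 and 1184 CPM with 5AzadC and 288, 252 and 301 CPM with DMSO. The untreated groups overlapped, and treated wild type lay above treated H2A.Z-mCherry in every library, with an interaction of -1.20 ± 0.14 (SE, adjusted p 8.99e-09). DDIT4, an inhibitor of the growth kinase mTORC1, had an interaction of -0.81 ± 0.18 (SE, adjusted p 0.00293), and these were the 2 called. BTG1, a relative of BTG2, had 0.50 in H2A.Z-mCherry and 1.30 in wild type (interaction -0.80 ± 0.14, adjusted p 5.29e-05). The transcriptional repressor gene cica (capicua) had 0.82 in H2A.Z-mCherry and 1.89 in wild type (interaction -1.07 ± 0.19, adjusted p 6.21e-05).

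**Figure D3:**
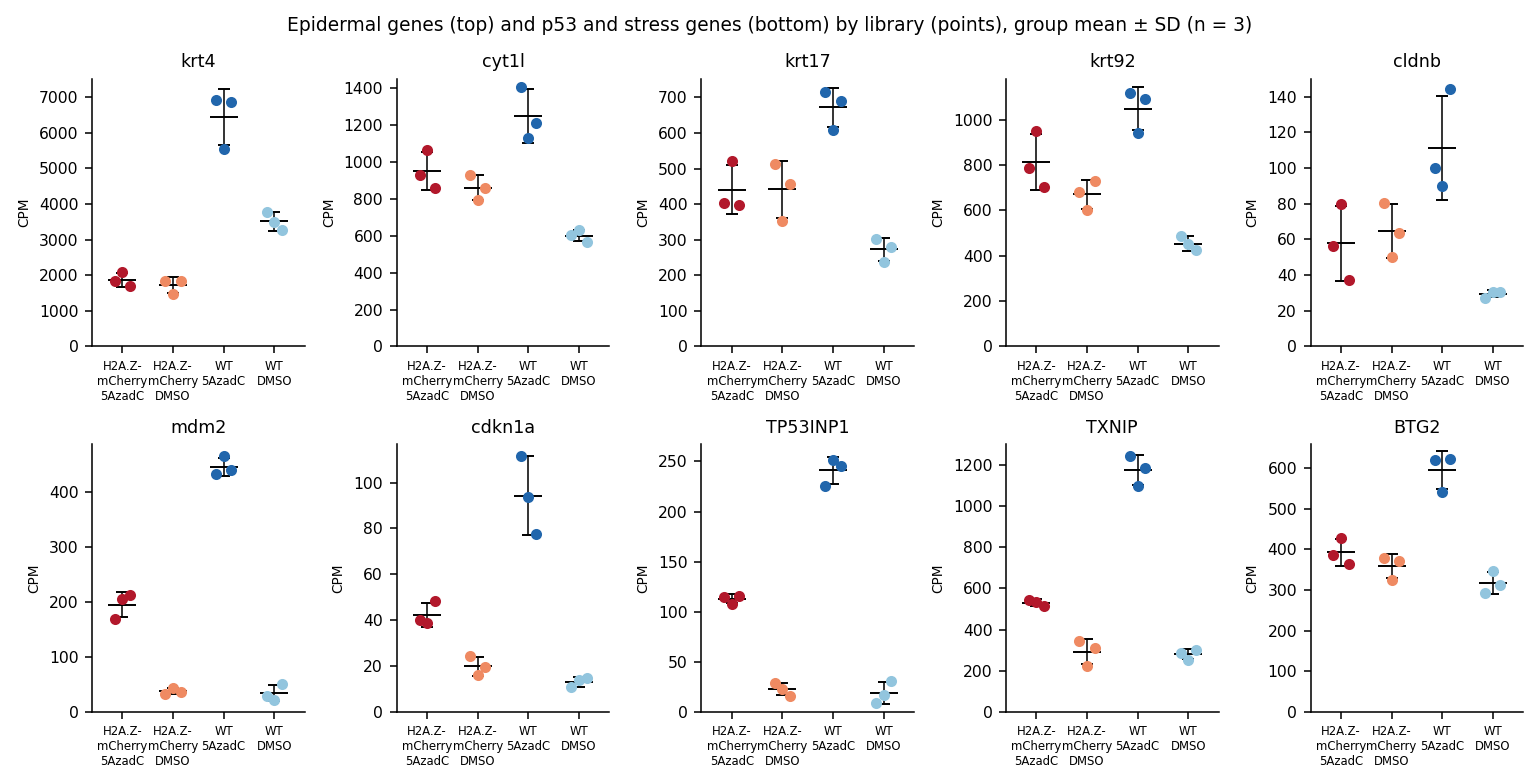
Points show the CPM of 5 epidermal genes (upper row) and 5 p53 and stress genes (lower row) in each library, with group mean and SD in black (n = 3). In the upper row the 2 H2A.Z-mCherry groups lie close together while wild type with 5AzadC is highest, and krt4 is lower in both H2A.Z-mCherry groups, at 1469 to 2086 CPM. In the lower row mdm2 and cdkn1a rise in both genotypes and reach a lower level in H2A.Z-mCherry.

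Among proteins of the cytosolic ribosome 15 of 70 tested members were called, all lower, or 21.4% against 1.85% of all genes. The median interaction was -0.19. Over all tested genes it was 0.02, or 0.38 in size without regard to sign. Called genes had a median level of 125 CPM, against 24.7 CPM over all tested genes, and the part of level in the count of 15 was not tested. In H2A.Z-mCherry 55 of the 70 members rose and in wild type 58, and none fell in either genotype. The interaction was negative in 51 members and positive in 19. The median log2 difference of H2A.Z-mCherry from wild type was 0.18 with DMSO and -0.04 with 5AzadC. The gene rps3 stood at 1730.1, 1743 and 1633 CPM in H2A.Z-mCherry with 5AzadC and 1741, 1380.2 and 1672 CPM with DMSO, against 2041, 1982 and 2194 CPM in wild type with 5AzadC and 1231, 1338 and 1366 CPM with DMSO. The H2A.Z-mCherry groups overlapped and lay between those of wild type, with no overlap with either. For rps3, RPL15 and RPL4 the interactions were -0.57 ± 0.11 (SE, adjusted p 0.000332), -0.53 ± 0.12 (SE, adjusted p 0.00273) and -0.45 ± 0.10 (SE, adjusted p 0.00403). The count of 15 was 5 without wild-type DMSO replicate 1 and 8 without H2A.Z-mCherry 5AzadC replicate 3.

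Among genes for RNA of the signal recognition particle, listed after their values were seen, 10 of 51 tested members were called, all lower, or 19.6% against 1.85% of all genes, and the median interaction was -0.41. In H2A.Z-mCherry none rose and 1 fell, and in wild type 22 rose and none fell. These copies are nearly identical, so the counting of shared reads decides how the signal is spread over them. The 51 entries are therefore not separate signals, and their share cannot be read like a share of distinct genes. Their share of all counts differed between groups as given above, and its part in other results was measured only by leaving out rn7sl1.

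In the opposite direction stood genes that rose in H2A.Z-mCherry and fell in wild type. HMGB2, an abundant protein that bends DNA in chromatin, had 454, 431 and 411 CPM in H2A.Z-mCherry with 5AzadC and 285, 334 and 294 CPM with DMSO. In wild type the values were 205, 262 and 155 CPM with 5AzadC and 328, 298 and 280.2 CPM with DMSO. The untreated groups overlapped, the treated H2A.Z-mCherry libraries lay above them and the treated wild-type libraries below them. The interaction was 1.04 ± 0.16 (SE, adjusted p 6.05e-06).

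High mobility group genes shared this sign. Of 14 tested members, listed after HMGB2 was seen and with HMGB2 among them, 6 were called, all higher, or 42.9% against 1.9% of all genes, and all 14 interactions were positive, with a median of 0.83. Of the 13 members other than HMGB2, 5 were called. The list is not independent of the gene that led to it, and those of its members named below other than hmgn1b were chosen after their values were seen. In H2A.Z-mCherry 6 members rose and none fell, and in wild type 6 fell and none rose. The nucleosome-binding gene hmgn7 was reversed, with 103, 92.5 and 93.7 CPM in H2A.Z-mCherry with 5AzadC and 74.6, 62.3 and 64.6 CPM with DMSO, against 38, 52.7 and 50.8 CPM in wild type with 5AzadC and 84.7, 70.7 and 70.4 CPM with DMSO. Its treated libraries were the highest and the lowest of the 4 groups, without overlap, and the interaction was 1.204 ± 0.26 (SE, adjusted p 0.00192). Its relative hmgn1b lost its fall, with responses of 0.11 in H2A.Z-mCherry and -0.64 in wild type (interaction 0.76 ± 0.14, adjusted p 0.000145).

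The AT-hook gene HMGA2, whose protein binds the minor groove of DNA, had 23.3, 15.3 and 16.7 CPM in H2A.Z-mCherry with 5AzadC and 10.5, 9.41 and 17 CPM with DMSO, against 5.96, 3.29 and 4.62 CPM in wild type with 5AzadC and 22.8, 12.7 and 24.1 CPM with DMSO. Only treated wild type stood low, and the interaction was 2.65 ± 0.60 (SE, adjusted p 0.00325). HMGB3 (ENSDARG00000056725) also lost its fall, with an interaction of 0.88 ± 0.22 (SE, adjusted p 0.0116), a call that ended without H2A.Z-mCherry 5AzadC replicate 1 (adjusted p 0.0567). The very abundant hmga1a had a gained rise and an interaction of 0.36 ± 0.09 (SE, adjusted p 0.013), a call that ended without wild-type 5AzadC replicate 3 (adjusted p 0.0778).

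Further genes were reversed in this direction. NUCKS1, an abundant nuclear protein bound to chromatin, had responses of 0.38 in H2A.Z-mCherry and -0.26 in wild type (interaction 0.64 ± 0.12, adjusted p 0.000168). LMNB1, a lamin that lines the nucleus, chosen after its values were seen, had 0.38 in H2A.Z-mCherry and -0.37 in wild type (interaction 0.75 ± 0.17, adjusted p 0.00441). The smallest p of the class was that of ADISSP, with 683, 668 and 611 CPM in H2A.Z-mCherry with 5AzadC and 575, 486 and 557 CPM with DMSO, against 209.9, 239.5 and 242 CPM in wild type with 5AzadC and 407, 403 and 416 CPM with DMSO. No 2 of its 4 groups overlapped, and the interaction was 1.11 ± 0.13 (SE, adjusted p 8.99e-09). The hydroxylase gene asph had an interaction of 1.21 ± 0.16 (SE, adjusted p 6.2e-08) and the glycosylation gene GALNT7 of 0.91 ± 0.15 (SE, adjusted p 1.6e-05).

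A pair of developmental transcription factors was reversed as well. Their rises in H2A.Z-mCherry passed the edgeR test narrowly, at adjusted p 0.043 for sox19a and 0.0348 for TFAP2C. The SoxB1 gene sox19a, active in early embryos and the neural plate, had 219, 227 and 242 CPM in H2A.Z-mCherry with 5AzadC and 226, 172 and 146 CPM with DMSO. Wild type had 165, 202 and 157 CPM with 5AzadC and 253, 307 and 240.5 CPM with DMSO. The H2A.Z-mCherry groups overlapped, the wild-type groups did not, and the interaction was 0.95 ± 0.17 (SE, adjusted p 0.000145). TFAP2C, a regulator of epidermis and neural crest, had responses of 0.28 in H2A.Z-mCherry and -0.48 in wild type (interaction 0.76 ± 0.14, adjusted p 0.000162), opposite in sign to the keratin genes of its list.

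In the list of the DNA methylation machinery the interaction was called in 2 of 16 tested members, both higher, or 12.5% against 1.9% of all genes. It was positive in 15, with a median of 0.43. Within genotypes 2 members fell and 1 rose in H2A.Z-mCherry, while 8 fell and none rose in wild type. UHRF1, which brings the maintenance methyltransferase to newly copied DNA, had 208, 192 and 213 CPM in H2A.Z-mCherry with 5AzadC and 218, 213 and 178 CPM with DMSO, against 119, 142 and 126 CPM in wild type with 5AzadC and 248, 289 and 263 CPM with DMSO. The H2A.Z-mCherry groups overlapped and lay between those of wild type, and the interaction was 1.06 ± 0.17 (SE, adjusted p 8.03e-06). The de novo methyltransferase gene dnmt3ba was the other call, at 0.57 ± 0.13 (SE, adjusted p 0.00409). DNMT1, the maintenance methyltransferase itself, chosen after its values were seen, fell in both genotypes, and its interaction of 0.28 ± 0.16 (SE, adjusted p 0.414) did not pass.

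In the list of DNA replication and cell cycle genes, 41 of 47 tested members had a positive and 6 a negative interaction, with a median of 0.50. Of these 11 were called, 10 higher and 1 lower. That is 23.4%, against 3.75% of all genes. In H2A.Z-mCherry 6 fell and 1 rose, and in wild type 24 fell and 1 rose. The 1 lower call was CCNB1, the mitotic cyclin B1, with an interaction of -0.58 ± 0.18 (SE, adjusted p 0.0499). That call ended with upper quartile factors, with all genes that had a count, and without each single library other than H2A.Z-mCherry DMSO replicate 3, wild-type 5AzadC replicate 2 and wild-type DMSO replicate 3, and its adjusted p ran from 0.0193 to 0.191. MCM2, a subunit of the helicase that opens replication origins, had 309, 283 and 288 CPM in H2A.Z-mCherry with 5AzadC and 378, 356 and 419 CPM with DMSO, against 176, 212 and 184 CPM in wild type with 5AzadC and 416, 484 and 427 CPM with DMSO. It fell in both genotypes, to a lower level in wild type, and the interaction was 0.83 ± 0.14 (SE, adjusted p 5.29e-05).

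The helicase subunits MCM3 and MCM5 lost their fall, with interactions of 0.59 ± 0.14 (SE, adjusted p 0.00615) and 0.64 ± 0.16 (SE, adjusted p 0.00891). Both calls ended without wild-type 5AzadC replicate 1 (adjusted p 0.0558 and 0.0771). For CCND1, a cyclin that starts the cell cycle, the interaction was 0.58 ± 0.13 (SE, adjusted p 0.00344). The count of 11 in the list was 3 without wild-type 5AzadC replicate 1 and 5 without H2A.Z-mCherry 5AzadC replicate 1. It was 6 without H2A.Z-mCherry 5AzadC replicate 3 or H2A.Z-mCherry DMSO replicate 2. It was 7 with all libraries thinned to the smallest, and also without H2A.Z-mCherry 5AzadC replicate 2, H2A.Z-mCherry DMSO replicate 3, wild-type 5AzadC replicate 3 or wild-type DMSO replicate 1 or 2.

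Among single genes that lost their fall, FSTL1 (ENSDARG00000039576), a secreted relative of follistatin, had the smallest p. It stood at 242, 229 and 247 CPM in H2A.Z-mCherry with 5AzadC and 199, 248 and 248 CPM with DMSO, against 72.2, 119 and 95.1 CPM in wild type with 5AzadC and 261, 246 and 213 CPM with DMSO. Treated wild type alone was low, the other 3 groups overlapped, and the interaction was 1.38 ± 0.18 (SE, adjusted p 6.73e-08). With NOTCH1 it made up the 2 calls among 90 genes of Wnt, Fgf, Bmp and Notch signalling, a share below that of all tested genes. The gene hapln1a, whose protein links hyaluronan to proteoglycans, had an interaction of 1.28 ± 0.22 (SE, adjusted p 2.7e-05). SLC29A1 (ENSDARG00000101289), a transporter of nucleosides, had responses of 0.16 in H2A.Z-mCherry and -0.62 in wild type (interaction 0.78 ± 0.15, adjusted p 0.000188). In hapln1a and SLC29A1 the genotypes already differed with DMSO, where the log2 difference of H2A.Z-mCherry from wild type was -0.57 for hapln1a and -0.68 for SLC29A1.

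**Figure D4:**
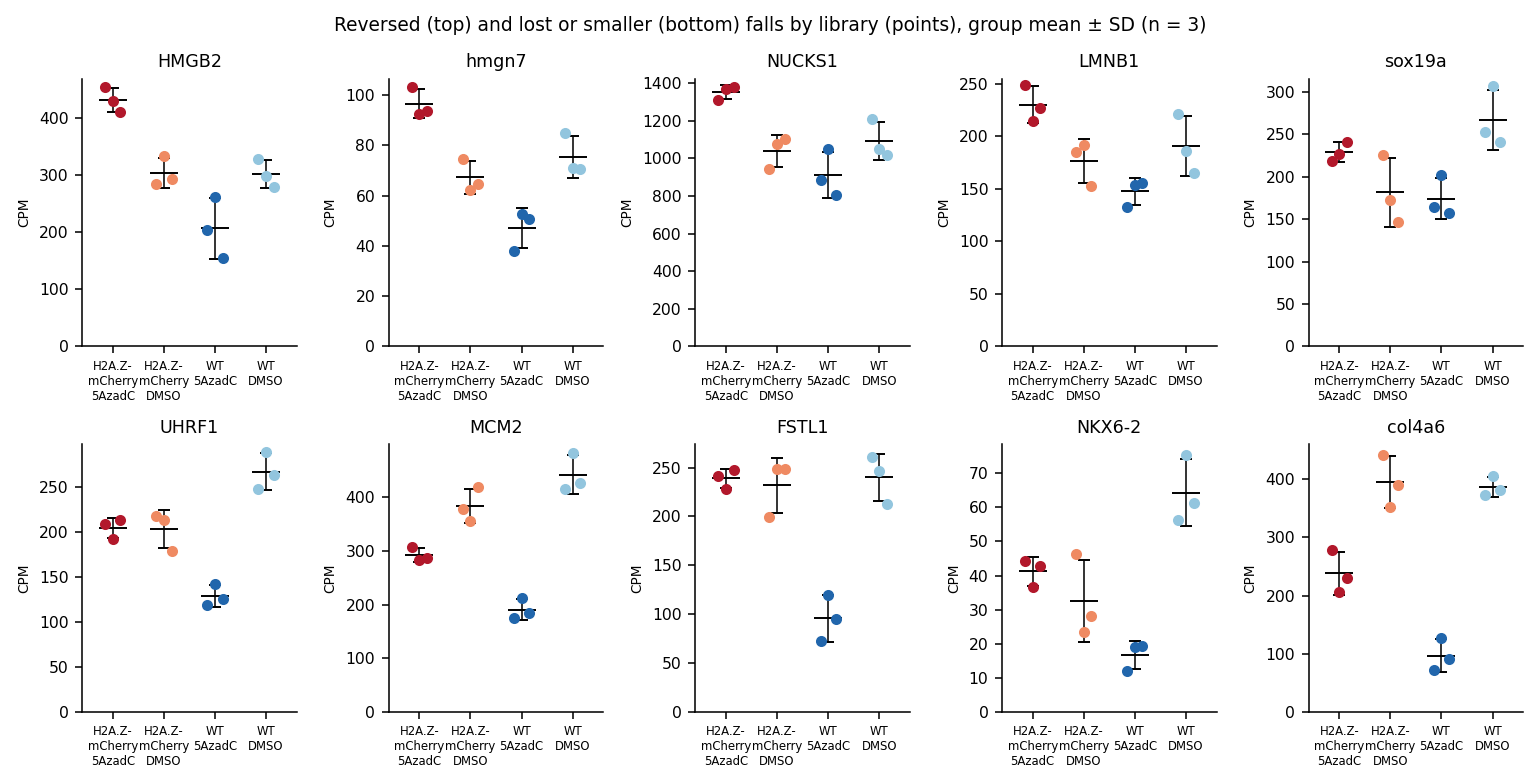
Points show the CPM of 10 genes in each library, with group mean and SD in black (n = 3). The upper row holds genes whose treated H2A.Z-mCherry mean is above and treated wild-type mean below their own DMSO mean, and the lower row genes whose fall was lost or smaller in H2A.Z-mCherry. FSTL1 has 72.2 to 119 CPM in treated wild type, below every other library.

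For neural genes the interaction was called in 6 of 61 tested members, all higher, or 9.84% against 1.9% of all genes, and the median was 0.54. Within genotypes 19 members fell and 1 rose in H2A.Z-mCherry, and 36 fell and 2 rose in wild type. The smallest p of the list was that of sox19a, given above. NKX6-2, a homeobox gene of the neural tube that is not in the list, was among the lost falls. It had 44.4, 36.5 and 42.7 CPM in H2A.Z-mCherry with 5AzadC and 46.2, 23.5 and 28 CPM with DMSO, against 11.9, 18.9 and 19.4 CPM in wild type with 5AzadC and 56.3, 75.3 and 61.3 CPM with DMSO. The H2A.Z-mCherry groups overlapped and lay between those of wild type, and the interaction was 2.31 ± 0.37 (SE, adjusted p 9.74e-06). The forebrain gene foxd1, a member of the list, had 15.8, 7.07 and 4.69 CPM in H2A.Z-mCherry with 5AzadC and 20.3, 14.1 and 19.5 CPM with DMSO, against 2.23, 5.76 and 0.923 CPM in wild type with 5AzadC and 37.9, 46.6 and 30.6 CPM with DMSO. Its interaction was 2.62 ± 0.64 (SE, adjusted p 0.00711), a call that ended without H2A.Z-mCherry 5AzadC replicate 1 (adjusted p 0.0993). The count of 6 was 1 without that library, 3 without H2A.Z-mCherry 5AzadC replicate 3, and 2 without H2A.Z-mCherry DMSO replicate 1, wild-type 5AzadC replicate 1 or wild-type 5AzadC replicate 3.

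Among skeletal muscle genes 4 of 27 interactions were called, all higher, or 14.8% against 1.9% of all genes, and the median was 0.40. Within genotypes 6 members fell and 1 rose in H2A.Z-mCherry, while 15 fell and 4 rose in wild type. The giant sarcomere gene TTN (ENSDARG00000028213) had 1582, 1187 and 1478 CPM in H2A.Z-mCherry with 5AzadC and 2415, 2549 and 2544 CPM with DMSO, against 1063, 1036 and 1138 CPM in wild type with 5AzadC and 2627, 2585 and 3069.9 CPM with DMSO. It fell in both genotypes without overlap, and the interaction was 0.53 ± 0.11 (SE, adjusted p 0.00155). The count of 4 was 1 without H2A.Z-mCherry 5AzadC replicate 1, and 2 without H2A.Z-mCherry DMSO replicate 3, wild-type 5AzadC replicate 1 or 3, or wild-type DMSO replicate 1 or 2.

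In the list of collagens and extracellular matrix 4 of 61 members were called, all higher, or 6.56%. Of all genes 1.9% were called higher and 3.75% in either direction. The collagen gene col7a1l and the matrix gene SVEP1 are not in the list, and both were called lower (interactions -0.66 and -1.99). The median interaction of the list was only 0.02, as over all tested genes. The basement membrane collagen gene col4a6 had 278, 206 and 229.6 CPM in H2A.Z-mCherry with 5AzadC and 442, 353 and 390.1 CPM with DMSO, against 71.5, 128 and 90.5 CPM in wild type with 5AzadC and 373, 405 and 382 CPM with DMSO. Its untreated groups overlapped, both treated groups were lower and wild type lowest, with an interaction of 1.27 ± 0.18 (SE, adjusted p 3.45e-06). The count of 4 was 1 without H2A.Z-mCherry 5AzadC replicate 1 or H2A.Z-mCherry DMSO replicate 3, and 2 without wild-type 5AzadC replicate 1. Smaller falls were also called for PTPRK, a receptor phosphatase of cell contacts, at -1.69 in H2A.Z-mCherry and -2.86 in wild type (interaction 1.17 ± 0.19, adjusted p 1.67e-05), and for the transcription factor gene zbtb16b, at -0.62 in H2A.Z-mCherry and -1.50 in wild type (interaction 0.88 ± 0.14, adjusted p 7.48e-06).

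Gained rises were led by calr3b, a gene of the calreticulin family of chaperones. It had 312, 365 and 338 CPM in H2A.Z-mCherry with 5AzadC and 209, 192 and 188 CPM with DMSO, against 141, 171 and 157 CPM in wild type with 5AzadC and 168, 196 and 156 CPM with DMSO. Only treated H2A.Z-mCherry stood high, and the interaction was 0.94 ± 0.16 (SE, adjusted p 5.29e-05). Both genes named SET, a histone chaperone, had gained rises and were chosen after their values were seen. SET (ENSDARG00000031495) had responses of 0.52 in H2A.Z-mCherry and -0.08 in wild type (interaction 0.61 ± 0.14, adjusted p 0.00326), and SET (ENSDARG00000003920) had 0.55 in H2A.Z-mCherry and 0.00 in wild type (interaction 0.55 ± 0.13, adjusted p 0.00454).

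Further gained rises had larger p than calr3b. The translation factor gene EIF5A2 had an interaction of 0.54 ± 0.11 (SE, adjusted p 0.000625), the nuclear transport gene ranbp1 of 0.71 ± 0.15 (SE, adjusted p 0.00112), and the calmodulin gene calm3b of 0.80 ± 0.16 (SE, adjusted p 0.000992). PPP1R14C, an inhibitor of a protein phosphatase, had responses of 0.73 in H2A.Z-mCherry and -0.04 in wild type (interaction 0.77 ± 0.17, adjusted p 0.00173). Noncoding RNAs were among them, with oip5-as1, the long RNA known as cyrano, at 0.84 ± 0.16 (SE, adjusted p 0.000192). RNaseP_nuc (ENSDARG00000085497), the RNA of nuclear ribonuclease P, had 292, 326 and 287 CPM in H2A.Z-mCherry with 5AzadC and 143, 121 and 209.9 CPM with DMSO, against 239, 260.1 and 271 CPM in wild type with 5AzadC and 288, 312 and 225 CPM with DMSO. Here untreated H2A.Z-mCherry was the low group, below the other 3, and the interaction was 1.06 ± 0.19 (SE, adjusted p 0.000272).

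Gained falls were led by NIPBL (ENSDARG00000098272), which loads cohesin onto DNA. It had 272, 249 and 255 CPM in H2A.Z-mCherry with 5AzadC and 370.4, 421 and 432 CPM with DMSO, against 364, 315 and 308 CPM in wild type with 5AzadC and 288, 321 and 359.7 CPM with DMSO. Treated H2A.Z-mCherry was below every other library and untreated H2A.Z-mCherry above them, while the wild-type groups overlapped, and the interaction was -0.69 ± 0.14 (SE, adjusted p 0.00119). EP300 (ENSDARG00000061108), a histone acetyltransferase, had responses of -0.63 in H2A.Z-mCherry and -0.06 in wild type (interaction -0.57 ± 0.13, adjusted p 0.00344). The ubiquitin ligase gene TTC3 had -0.80 in H2A.Z-mCherry and -0.02 in wild type (interaction -0.78 ± 0.17, adjusted p 0.002), and MARF1 had -0.71 in H2A.Z-mCherry and -0.02 in wild type (interaction -0.69 ± 0.16, adjusted p 0.00323).

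LRP6, a co-receptor of Wnt signals, was among the gained falls with an interaction of -0.70 ± 0.16 (SE, adjusted p 0.00389), and WDR7 with -0.82 ± 0.19 (SE, adjusted p 0.00441). The responses of LRP6 were -0.42 in H2A.Z-mCherry and 0.27 in wild type. TGM1 (ENSDARG00000101407), a transglutaminase that cross-links the outer layer of skin, had -0.56 in H2A.Z-mCherry and 0.39 in wild type (interaction -0.96 ± 0.23, adjusted p 0.00547). The wild-type rises of LRP6 and TGM1 did not pass the edgeR test (adjusted p 0.0668 and 0.065). Of 31 tested hox genes, which pattern the body axis, 1 was called, or 3.23% against 3.75% of all genes. HOXC6 (ENSDARG00000070343) had responses of -0.90 in H2A.Z-mCherry and 0.28 in wild type (interaction -1.17 ± 0.29, adjusted p 0.00798), and this call ended without wild-type 5AzadC replicate 1 (adjusted p 0.0561) or H2A.Z-mCherry DMSO replicate 3 (adjusted p 0.0516).

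Larger responses in H2A.Z-mCherry were few, 2 rises and 5 falls. TRPM7, an ion channel with a kinase domain, fell by 1.098 on the log2 scale in H2A.Z-mCherry and by 0.46 in wild type (interaction -0.64 ± 0.16, adjusted p 0.00999). Its call ended without wild-type DMSO replicate 1 (adjusted p 0.0574). The collagen VII gene col7a1l (ENSDARG00000069692) fell by 1.94 in H2A.Z-mCherry and by 1.28 in wild type (interaction -0.66 ± 0.17, adjusted p 0.0108). Its call ended without H2A.Z-mCherry 5AzadC replicate 2 (adjusted p 0.0698) or H2A.Z-mCherry DMSO replicate 3 (adjusted p 0.0575).

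**Figure D5:**
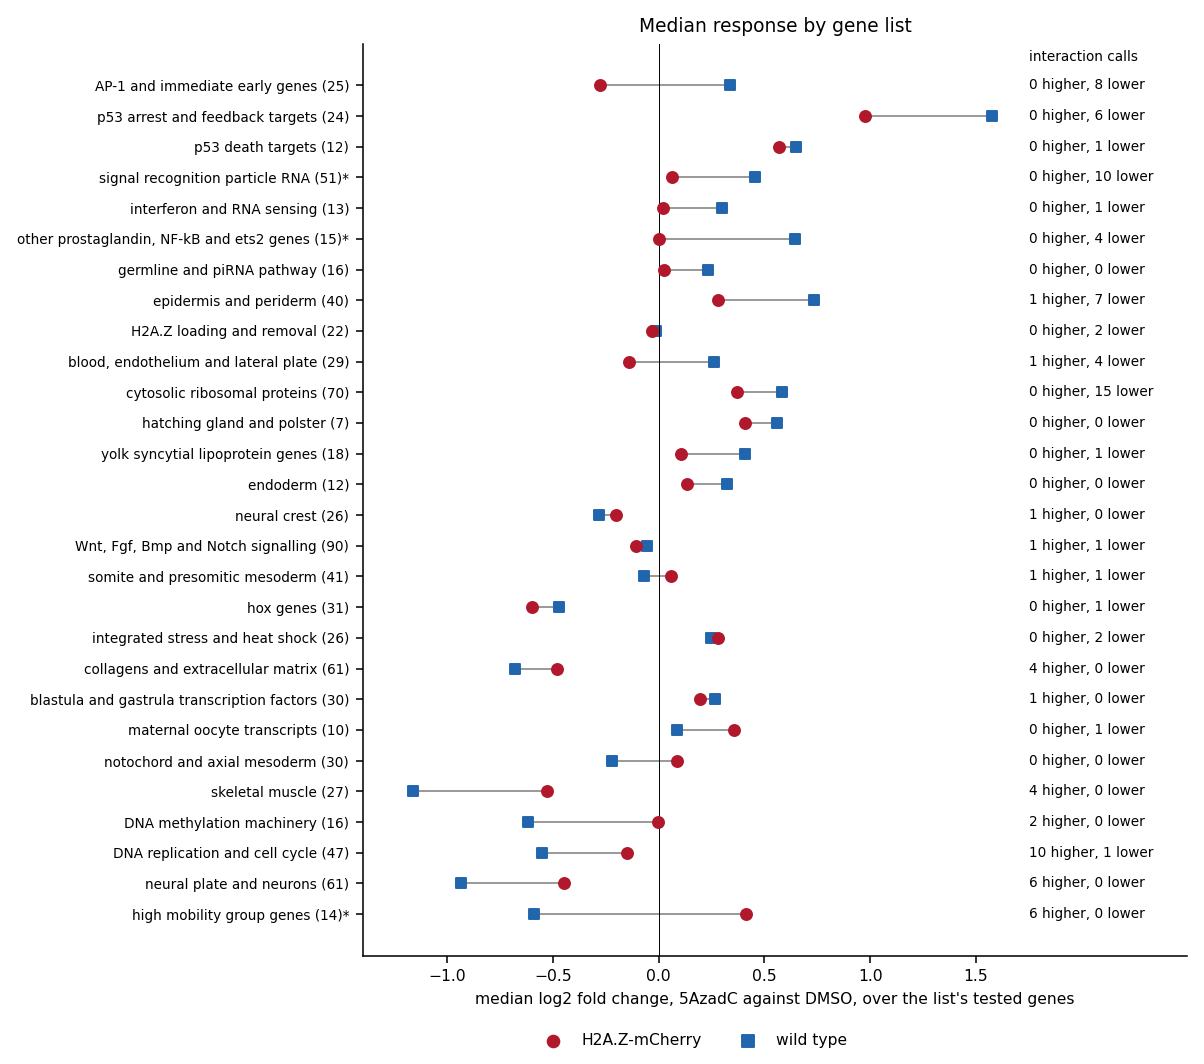
For each gene list with 5 or more tested genes (their number in brackets), the median log2 fold change of 5AzadC against DMSO is drawn for H2A.Z-mCherry (red circle) and wild type (blue square), ordered by the median interaction, with called interactions at the right and an asterisk on lists chosen after values were seen. AP-1 genes head the lists with a lower response in H2A.Z-mCherry, and high mobility group genes stand at the other end, at 0.41 in H2A.Z-mCherry and -0.59 in wild type.

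The list of blood, endothelium and lateral plate had 5 calls of 29, or 17.2% against 3.75% of all genes, with 1 higher and 4 lower. That count was 1 without H2A.Z-mCherry DMSO replicate 1, 2 without H2A.Z-mCherry 5AzadC replicate 2, wild-type 5AzadC replicate 1 or wild-type DMSO replicate 2, and 3 without H2A.Z-mCherry 5AzadC replicate 1 or 3, H2A.Z-mCherry DMSO replicate 3 or wild-type DMSO replicate 1. H2A.Z loading and removal, the machinery that exchanges H2A.Z in nucleosomes, had 2 of 22, or 9.09%, both lower. Somite and presomitic mesoderm had 2 of 41, or 4.88%, with 1 in each direction. The count of H2A.Z loading was 0 without H2A.Z-mCherry DMSO replicate 3 or wild-type DMSO replicate 2. It was 1 with all genes that had a count and without 7 of the other libraries, and 3 without wild-type 5AzadC replicate 2. The somite count was 0 without H2A.Z-mCherry 5AzadC replicate 3, H2A.Z-mCherry DMSO replicate 1 or 3, wild-type 5AzadC replicate 3, or wild-type DMSO replicate 1 or 3. By the edgeR test none was called among 30 notochord and axial mesoderm genes, 16 germline genes, 12 endoderm genes or 7 hatching gland genes, and the medians of their interactions were 0.28, -0.27, -0.07 and -0.15. At an unadjusted p under 0.05 there were 9 of 30 notochord, 1 of 16 germline, 1 of 12 endoderm and 1 of 7 hatching gland genes. The notochord share was above the 16.1% of all tested genes, and the other shares were below it. The DESeq2 Wald test called 0 in each list. The notochord count was 2 without H2A.Z-mCherry DMSO replicate 1 and 1 with the replicate number as a block or without H2A.Z-mCherry 5AzadC replicate 2 or wild-type 5AzadC replicate 1 or 3, and the endoderm count was 1 without H2A.Z-mCherry 5AzadC replicate 2.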

How the data were processed

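Total RNA was sequenced from 12 libraries. The authors deposited raw read counts per Ensembl gene (32520 genes, no normalization, replicates kept apart) and a DESeq2 table per genotype, from which only the log2 fold change and the adjusted p-value columns were used. Per the submitters' processing notes the tools were STAR, featureCounts 2.0.3, Subread, DESeq2 1.22.2 and deepTools with GRCz11, with no role or order. The sources used here do not give the annotation, strand setting or handling of multiply mapped reads.

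The count model was edgeR 4.0.16 in R 4.3.3: filterByExpr kept 12293 genes (98.5% of counts), TMM scaling was used, and 1 quasi-likelihood fit over 4 groups gave 5 contrasts. CPM values use these scaled totals. The SE is the log2 value over the square root of its F statistic in size, and is approximate. The call threshold was an adjusted p of 0.05 (Benjamini-Hochberg, all tested genes).

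Genes named were the 8 smallest interaction p-values in each lost, reversed and gained class, 4 in each class of 1 direction, and up to 4 per gene list. Others are marked as chosen after their values were seen. Some genes under the rule are not reported here. The members, the 26 lists and 3 added lists were chosen with earlier results of these data known. The labels give no batch. A check of gene length is void, since 71.3% of tested genes matched a length by symbol. Alternatives were DESeq2 1.42.0, other scalings and filters, a replicate block, thinning and leaving out each library.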

Additional observations from a re-analysis of the deposited data

Results flagged for a closer look

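The response to 5AzadC differed between H2A.Z-mCherry and wild type, by the interaction test itself, in 461 genes, and each gene below was picked out because it is one of them and is named above. The values are interactions on the log2 scale, H2A.Z-mCherry minus wild type, and all passed at an adjusted p under 0.05 with edgeR. No test for outlying libraries was run within the groups of 3, but the fit was repeated without each single library. Over all alternatives the call of CCNB1 changed in 11 of 20 and that of pidd1 in 12 of 20. Among genes that fell in H2A.Z-mCherry and rose in wild type the interaction was -2.66 for ftr86, -3.39 for PTGS2, -1.98 for crb2a, -3.36 for JUNB (ENSDARG00000104773), -4.64 for JUNB (ENSDARG00000074378), -1.27 for FNIP1, -2.85 for ets2, -2.07 for TNFAIP3 and -1.35 for ALAS1. Where a wild-type rise was lost it was -3.16 for FOS, -0.91 for cyt1l, -2.75 for si:ch211-153b23.4, -1.30 for krt17, -1.99 for SVEP1, -0.82 for cyt1, -2.06 for cldnb, -0.71 for NOTCH1, -0.77 for BTG2, -2.65 for FOSL1, -3.76 for irg1l, -0.68 for apoa1b, -1.73 for CEBPB, -0.57 for rps3, -0.45 for RPL4, -1.32 for ier2a, -1.36 for NFKBIZ, -0.75 for krt4 and -0.58 for CCNB1. For smaller rises it was -1.20 for TXNIP, -0.93 for krt92, -0.80 for BTG1, -1.07 for cica, -1.36 for mdm2, -1.73 for cdkn1a, -1.37 for TP53INP1, -0.81 for DDIT4, -0.53 for RPL15 and -2.46 for si:ch211-153b23.5. For gained falls the values were -0.69 for NIPBL, -0.78 for TTC3, -0.69 for MARF1, -0.57 for EP300, -0.70 for LRP6, -0.82 for WDR7, -0.96 for TGM1, -4.48 for fosaa, -1.285 for pidd1 and -1.17 for HOXC6. For larger falls they were -0.64 for TRPM7 and -0.66 for col7a1l. In the positive direction, genes that rose in H2A.Z-mCherry and fell in wild type had 1.11 for ADISSP, 1.21 for asph, 1.04 for HMGB2, 0.91 for GALNT7, 0.95 for sox19a, 0.76 for TFAP2C, 0.64 for NUCKS1, 0.75 for LMNB1 and 1.204 for hmgn7. Lost falls had 1.38 for FSTL1, 1.06 for UHRF1, 2.31 for NKX6-2, 1.28 for hapln1a, 0.76 for hmgn1b, 0.78 for SLC29A1, 0.57 for dnmt3ba, 2.62 for foxd1, 0.58 for CCND1, 0.59 for MCM3, 0.64 for MCM5, 2.65 for HMGA2 and 0.88 for HMGB3. Smaller falls had 1.27 for col4a6, 0.88 for zbtb16b, 1.17 for PTPRK, 0.53 for TTN and 0.83 for MCM2. Gained rises had 0.94 for calr3b, 0.84 for oip5-as1, 1.06 for RNaseP_nuc, 0.54 for EIF5A2, 0.80 for calm3b, 0.71 for ranbp1, 0.77 for PPP1R14C, 0.36 for hmga1a, 0.61 for SET (ENSDARG00000031495) and 0.55 for SET (ENSDARG00000003920).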

How the results depend on the processing

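The count of 461 interaction genes stayed within 1.5 times under every alternative run. It was 426 with DESeq2, 455 with DESeq2 size factors, 460 with upper quartile factors, 414 with all genes that had a count, 460 with a stricter filter, 429 with libraries thinned to the smallest and 462 without rn7sl1. Leaving out 1 library gave 317 to 562 interaction genes, 147 to 255 lost, 20 to 42 reversed and 71 to 151 gained responses. Lost responses were 147 without wild-type 5AzadC replicate 3, and reversed ones were 20 without H2A.Z-mCherry DMSO replicate 3. Gained responses were 71 and 78 without H2A.Z-mCherry 5AzadC replicates 2 and 3, 75 without H2A.Z-mCherry DMSO replicate 3, 77 and 76 without wild-type 5AzadC replicates 1 and 3, and 75 and 77 without wild-type DMSO replicates 1 and 2. Fewer samples enter these fits. Requiring an adjusted p under 0.01 within each genotype left 15 reversed responses and 0.1 gave 63, since this threshold defines the class. With the replicate number as a block there were 464 interaction genes, of which 443 were shared, with 216 lost, 36 reversed and 122 gained. The labels do not say what the replicate numbers stand for. Deviations of same-numbered libraries correlated at -0.0265 to 0.024 over 18 pairs of libraries, against -0.0287 to 0.0199 over 36 pairs with other numbers. These correlations over all tested genes cannot show whether same-numbered libraries shared a clutch or batch. The share of calls that were higher ran from 46.3% to 53.5% over all alternatives. No named gene changed sign in any alternative, and of their comparisons with the main values 2315 kept their side of the threshold, 156 no longer passed and 2 passed anew. Depth limits low genes: a gene at few counts per library, such as fosaa, has an SE near 1 on the interaction.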
